A study of Mus musculus with 2 samples.

Results

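The miR-15/16 family is a set of small regulatory RNAs that share the bases they use to find target mRNAs. It was followed here as 8 mature microRNAs (miRNAs) out of the 1247 mouse miRNAs on the array: mmu-miR-15a-5p, mmu-miR-15b-5p, mmu-miR-16-5p, mmu-miR-195a-5p, mmu-miR-497-5p, mmu-miR-322-5p and mmu-miR-503-5p, together with mmu-miR-195a-3p, the other arm of the miR-195a hairpin. The species prefix is left off below. Members were taken by name, from a rule that uses no measured value but was written with earlier results of these data known. Knee joint cartilage came from male mice, 8 weeks old: 1 control sample labelled wildtype and 1 sample labelled Col2a1Tsc1KO, in which Tsc1 was deleted with the cartilage collagen gene Col2a1 directing the deletion. Each sample was hybridised to 1 one-colour Agilent miRNA array, so no difference below has a replicate check and no p-value was computed. The series text speaks of independent experiments, but how many mice each sample held and which Cre line was used were not stated in the labels.

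A miRNA pairs with sites in mRNAs mainly through its seed, bases 2 to 8 from the 5′ end, and lowers the output of those mRNAs. The miR-15/16 family is known as a brake on cell division: among its targets are cyclins D1 and E1, the kinase CDK6, the checkpoint kinase Chk1 and the survival protein BCL2. miR-16 and miR-15a are widely expressed, whereas the miR-195 and miR-497 pair is known for holding muscle precursor cells and postnatal heart muscle out of the cell cycle. The miR-322 and miR-503 pair, called miR-424 and miR-503 in humans, is known from differentiating muscle. TSC1 restrains mTORC1, the kinase complex that drives cell growth and progression into the cell cycle.

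The sequences below show why these miRNAs are read together and where they part. They are the RefSeq mature sequences of GRCm38.p6, written 5′ to 3′ with the seed in capitals. All 8 members were matched to that table, in which the array's miR-497-5p is called miR-497a-5p.
miR-15a-5p: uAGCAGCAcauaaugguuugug
miR-15b-5p: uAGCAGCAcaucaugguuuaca
miR-16-5p: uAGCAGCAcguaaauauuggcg
miR-195a-5p: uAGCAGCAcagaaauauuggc
miR-497-5p: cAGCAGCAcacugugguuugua
miR-322-5p: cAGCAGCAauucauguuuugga
miR-503-5p: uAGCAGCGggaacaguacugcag
miR-195a-3p: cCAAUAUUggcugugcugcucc
miR-103-3p: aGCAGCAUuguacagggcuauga
miR-107-3p: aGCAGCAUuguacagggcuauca

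The seed AGCAGCA was shared by 6 members, miR-503-5p carried AGCAGCG, and miR-195a-3p had an unrelated seed. The string AGCAGC stood at bases 2 to 7 of 7 of the 8 members. Searched on the RNA strand at bases 1 to 6 or 2 to 7, it occurred in 13 of 1679 mature mouse names in the table, or 0.774%. All 13 were on the array, and the 6 that are no members included miR-103-3p and miR-107-3p, in which the string begins 1 base earlier. Downstream of the seed the members differ. The array's probes pair from the 3′ end of the miRNA, and for the 6 members with AGCAGCA they also reach part or all of the shared seed. Each probe of a member matched its own miRNA with 0 mismatches. The closest relation was between the miR-195a-5p probes of 18 and 19 bases and miR-16-5p, with 2 mismatches. How much of the signal of a probe came from a related miRNA was not tested.

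The members are made from 4 paired loci. On chromosome 14 (GRCm38.p6), Mir15a lies at positions 61632027 to 61632110 and Mir16-1 at 61631880 to 61631972, 54 bases apart, both within the span of the noncoding gene Dleu2. On chromosome 3, Mir15b at 69009772 to 69009835 and Mir16-2 at 69009902 to 69009996 are 66 bases apart within the span of Smc4, which encodes a condensin subunit. On chromosome 11, Mir497 at 70234717 to 70234800 and Mir195a at 70235042 to 70235135 are 241 bases apart, with no gene spanning either in the annotation used. On chromosome X, Mir322 at 53054255 to 53054349 and Mir503 at 53053984 to 53054054 are 200 bases apart within the span of the noncoding gene C430049B03Rik. Mature miR-16-5p is identical from Mir16-1 and Mir16-2, so its signal cannot be assigned to either.

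Values below are background-subtracted spot intensities in arbitrary units. Each probe of a member was printed at 20 spots, and spots marked as outliers by the scanner software were left out. Spots of 1 array share that array's RNA, so their spread holds technical noise alone. For differences, log2 intensities were taken relative to each array's own 75th percentile, computed from the 476 probes that both arrays detected well above background. A difference is the knockout minus the control on the log2 scale with its standard error (SE) over spots. This scaling takes 0.41 from every unscaled log2 difference. The median of the negative-control spots was 5.02 for the control and 4.93 for the knockout. Among miRNA spots 19.6% and 21.1%, in the same order, were well above background, and 0 were saturated on either array. Both arrays lay on 1 slide, so genotype and slide position cannot be told apart. Between bulk samples, fewer cells of a type and less RNA per cell cannot be told apart either. No level of 1 miRNA is set against that of another, because their probes differ.

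Across the family the knockout array stood higher for miR-497-5p, miR-195a-5p, miR-15a-5p and miR-322-5p, about level for miR-16-5p, and lower for miR-15b-5p and miR-195a-3p. For miR-503-5p, near the detection limit, the mean was higher on the knockout array, with spots that overlapped after scaling. Both arrays measured 7 of the 8 members well above background, and the knockout array alone measured miR-503-5p. Of the 7, 5 were higher on the knockout array, counting miR-16-5p at 0.050, and 2 were lower. Over all 257 measured miRNAs, 40.9% were higher. With no scaling the members still split 5 to 2, or 71.4% higher, and the share over all miRNAs was 61.1%. At least 2-fold higher stood 1 member, miR-497-5p, where 15.6% of all 257 miRNAs did so, and at least 2-fold lower stood 1 member, miR-195a-3p, where 17.5% did. In either direction that makes 2 of 7 members, against 33.1% of all 257 miRNAs. The counts at 2-fold, and the 5 to 2 split with no scaling, lie near their background shares and are no result about the family. The median difference over the 7 members was 0.42, against -0.22 over all 257 miRNAs. Among the 128 brighter of the 257 miRNAs, which include 6 of the 7 members, the median was 0.036.

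**Figure D1:**
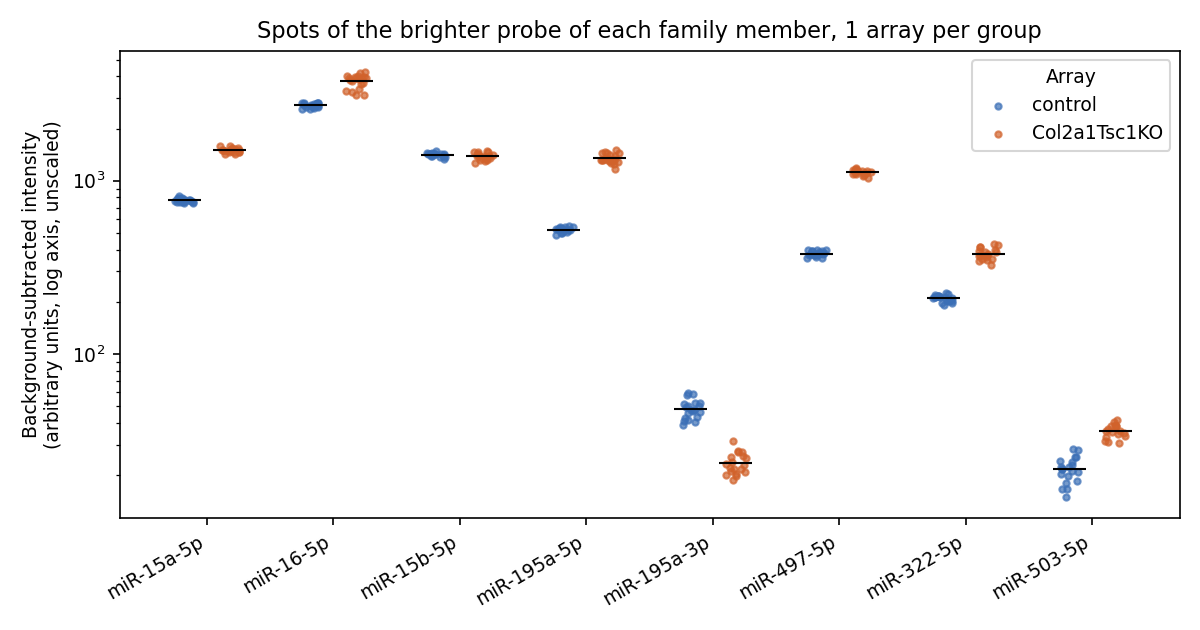
Background-subtracted intensity (arbitrary units, log axis, unscaled) of every usable spot of the brighter probe of each family member on the control array (blue) and the Col2a1Tsc1KO array (orange). Black lines are means over spots. Spots of the 2 arrays lie apart for every member except miR-15b-5p, whose means were 1411 and 1383, and the largest upward steps are those of miR-497-5p and miR-195a-5p.

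The chromosome 11 pair, miR-497-5p and miR-195a-5p, stood highest in the family. The 20-base miR-497-5p probe had spots from 356 to 398 with a median of 377.5 on the control array and from 1030 to 1190 with a median of 1125 on the knockout array. Every knockout spot lay above every control spot, also after scaling. Its 19-base probe gave medians of 126.5 and 398. The scaled difference of miR-497-5p was 1.19 ± 0.014 (SE over spots), or 2.27-fold, with 1.22 for the 19-base and 1.15 for the 20-base probe. It ranked 32 of 257, and with no scaling the difference was 1.60.

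miR-195a-5p, which is processed from the neighbouring hairpin, showed nearly as large a step. The 19-base probe ran from 489 to 545 with a median of 525 on the control array and from 1170 to 1500 with a median of 1330 on the knockout array. The 18-base probe had medians of 227 and 612, and for both probes the 2 arrays' spots lay apart. The scaled difference was 0.98 ± 0.015, or 1.98-fold, just short of the 2-fold line. The single probes fell on either side of that line, at 1.01 for 18 bases and 0.96 for 19 bases, and with no scaling the difference was 1.39. The 2 miRNAs differed from each other by 0.20 ± 0.021 on the log2 scale.

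The 2 arms of the miR-195a hairpin stood on opposite sides of zero. The hairpin is printed here because it is the member hairpin with both arms measured. It is the RefSeq sequence at chr11:70235042-70235135 (GRCm38.p6, plus strand), with the 5p arm first and the 3p arm second in capitals.
Mir195a: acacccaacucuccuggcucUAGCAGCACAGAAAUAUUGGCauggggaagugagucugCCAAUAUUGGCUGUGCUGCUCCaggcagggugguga

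The 3p arm was dim. Its longer probe, ggagcagcacagcc, of 14 bases, had spots from 39.0 to 59.4 with a median of 47.5 on the control array and from 18.6 to 31.3 with a median of 22.8 on the knockout array. All 20 control spots but only 15 of 19 knockout spots were marked well above background, a mark that no spot under 20.3 received on the knockout array. The 2 arrays' spots did not overlap. The scaled difference was -1.45 ± 0.061, or 2.73-fold lower, at rank 246 of 257, and with no scaling it was -1.04. The shorter probe, of 13 bases, was not well above background on either array, with medians of 18.9 and 6.25.

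Between the log2 differences of the arms the gap was 2.43 ± 0.062, with the 5p arm the higher. This is a 5.40-fold gap between the knockout-to-control ratios of the arms, not between their levels. The gap is the same under any scaling that shifts all miRNAs of an array alike. With other processing it ran from 1.14 to 2.63. The lower end came with the software's total gene signal, where miR-195a-3p was listed at 26.2 for the control and 31.2 for the knockout while its probe totals summed to 26.2 and 11.5, and its sign turned to 0.33. After normexp with an offset of 50 and quantile normalization, which shrinks dim differences by construction, the gap was 1.20 and miR-195a-3p stood at -0.39.

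The other 7 arms of the member hairpins give the background for that comparison. miR-15a-3p, miR-15b-3p, miR-16-1-3p, miR-16-2-3p, miR-497-3p, miR-322-3p and miR-503-3p were all not well above background on either array. For miR-15b-3p, 3 of 10 control spots of its 22-base probe were marked, with a median of 16.8. No gap between the differences of 2 arms could thus be formed for any hairpin but that of miR-195a.

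Of the chromosome 14 and 3 loci, miR-15a-5p and miR-15b-5p parted. For miR-15a-5p the 22-base probe ran from 745 to 818 with a median of 767.5 on the control array and from 1420 to 1590 with a median of 1500 on the knockout array. The spots of the arrays lay apart, as they did for the 21-base probe, with medians of 685.5 and 1320. The scaled difference was 0.54 ± 0.0089, or 1.45-fold higher, at rank 63. With no scaling it was 0.95.

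For miR-15b-5p the 20-base probe ran from 1340 to 1480 with a median of 1420 on the control array and from 1270 to 1480 with a median of 1380 on the knockout array. Before scaling the spots overlapped, also for the 19-base probe with medians of 924 and 800. After scaling they lay apart, and the difference was -0.52 ± 0.012, or 1.44-fold lower, at rank 166. Its size therefore rests on the scaling: with none it was -0.11, and over all alternatives it ran from -0.81 to -0.0079, negative in all 13. The probes gave -0.61 for 19 bases and -0.44 for 20 bases, a distance several times their standard errors of 0.018 and 0.017.

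miR-16-5p, which both of these loci make, lay between them. The 18-base probe had spots from 2580 to 2810 with a median of 2745 on the control array and from 3140 to 4240 with a median of 3870 on the knockout array. These did not overlap before scaling and did overlap after it, for both probes. The scaled difference was 0.050 ± 0.018, or 1.04-fold, and has no settled direction: it was 0.46 with no scaling, -0.35 with quantile normalization, -0.34 after normexp and -0.51 in the deposited log2 values. The gap from miR-15a-5p to miR-15b-5p was 1.06 ± 0.015, from 0.99 to 1.08 over the alternatives. miR-16-5p stood 0.49 ± 0.020 below the former and 0.57 ± 0.021 above the latter.

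**Figure D2:**
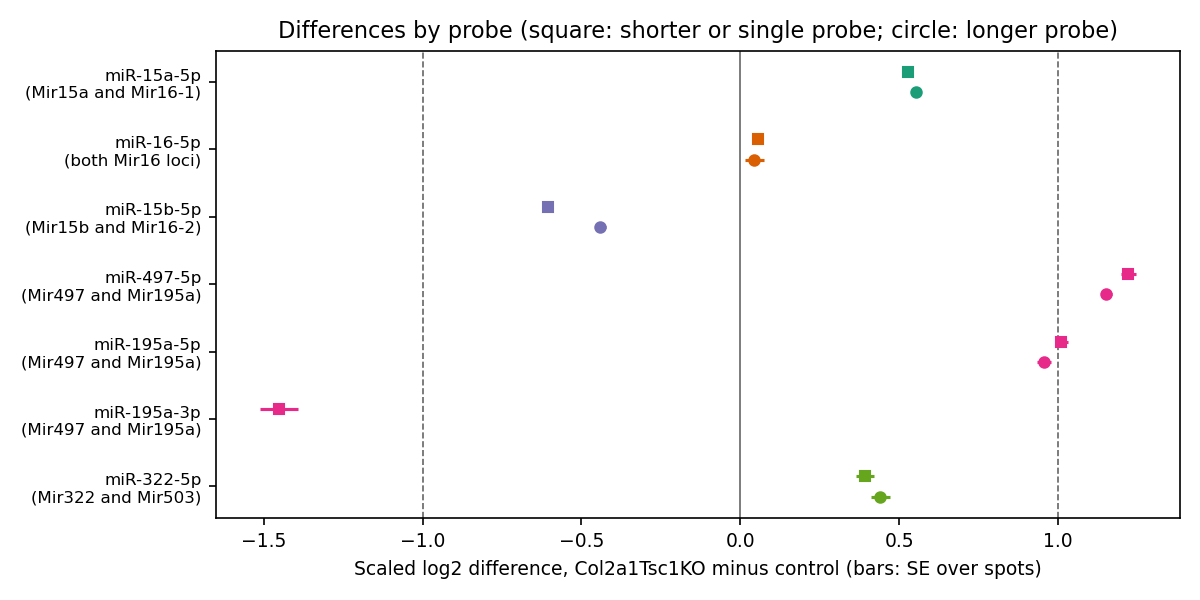
Scaled log2 difference, Col2a1Tsc1KO minus control, of each probe that was well above background on both arrays, with bars for the SE over spots; squares are shorter or single probes, circles longer probes, and colours and labels give the locus. The 2 probes of a miRNA lie on the same side of zero, furthest apart for miR-15b-5p, at -0.61 and -0.44. miR-195a-5p at 0.98 and miR-195a-3p at -1.45, made from 1 hairpin, lie on opposite sides of zero. The latter rests on 1 probe.

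Of the X chromosome pair, miR-322-5p was bright enough to compare. Its 22-base probe ran from 192 to 224 with a median of 212 on the control array and from 324 to 429 with a median of 373 on the knockout array. The 21-base probe had medians of 150.5 and 264, and the arrays' spots lay apart before and after scaling. The scaled difference was 0.42 ± 0.020, or 1.33-fold higher, at rank 70. It was positive in all 13 alternatives, from 0.42 to 0.92.

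miR-503-5p was near the detection limit. The 16-base probe had spots from 15.0 to 28.2 with a median of 21.7 on the control array, 9 of 20 marked well above background, and from 30.6 to 41.5 with a median of 35.7 on the knockout array, all 17 marked. The spots of the 2 arrays lay apart before scaling and overlapped after it. Set against the lowest level well above background on the control array, the knockout level of miR-503-5p was at least 1.25-fold higher. With no scaling this bound would lie higher by 0.41 on the log2 scale. The 15-base probe was not well above background on either array. In the deposited log2 values miR-503-5p was listed at 3.15 and 3.73.

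Of 9 further miRNAs encoded near miR-322 and miR-503 (the arms of miR-351, miR-542, miR-450a and miR-450b), 1 was well above background on both arrays. This was miR-450a-5p, with a dim difference of -0.20 ± 0.080 between scaled intensities of 25.8 and 22.4, which became 0.21 with no scaling.

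**Figure D3:**
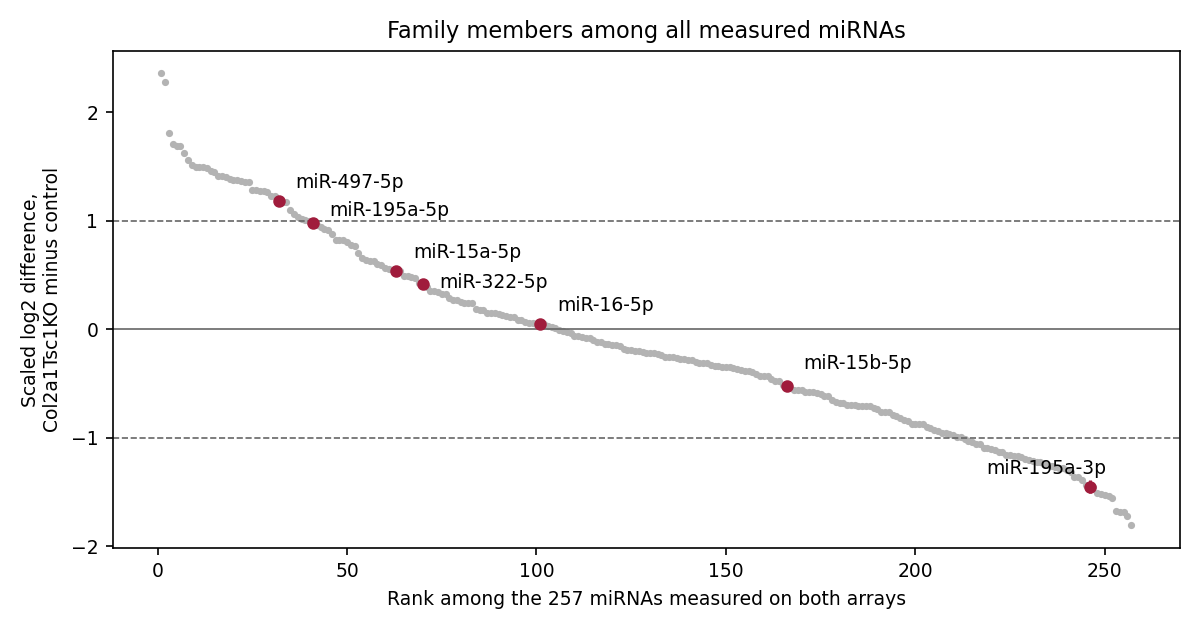
The 257 miRNAs well above background on both arrays, ordered by scaled log2 difference (vertical axis, Col2a1Tsc1KO minus control; grey points), with the 7 measured family members in red, bars for the SE over spots (mostly smaller than the points) and dashed lines at 2-fold. Members run from rank 32 (miR-497-5p) to rank 246 (miR-195a-3p).

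The 6 measured members with the seed AGCAGCA thus did not share 1 difference. From miR-497-5p to miR-15b-5p the gap was 1.71 ± 0.019, or 3.27-fold, and the neighbours closest in order, miR-15a-5p and miR-322-5p, were 0.12 ± 0.022 apart. In all 14 settings compared, which share the same 2 arrays, miR-497-5p was the highest of the 6 and miR-195a-5p the next. In the same settings miR-15b-5p was the lowest and miR-16-5p the next lowest. Settings that add 1 constant to these 6, such as no scaling or spike-in scaling, or leave them unchanged cannot alter their order. Only the remaining settings could have changed it. miR-15a-5p and miR-322-5p changed places between settings. The gap from miR-195a-5p to miR-16-5p, the 2 members most alike in sequence beyond the seed by the probe match above, was 0.93 ± 0.023 and ran from 0.91 to 1.43.

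**Figure D4:**
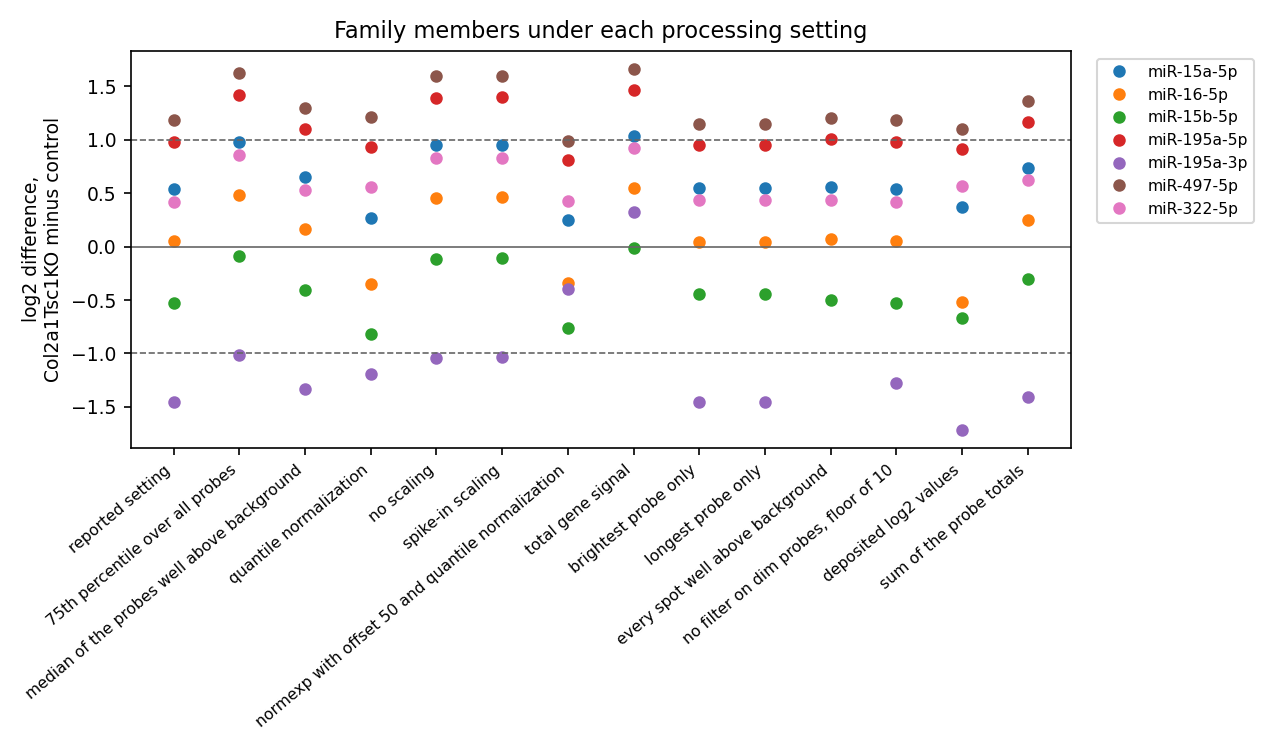
The log2 difference (Col2a1Tsc1KO minus control) of the 7 measured members under the reported setting and 13 alternatives, 1 column of points per setting, with dashed lines at 2-fold. Settings that add a constant to all members, such as no scaling, spike-in scaling and the median, move them up or down together. Others move members unequally, such as quantile normalization, which lowers miR-16-5p and raises miR-322-5p. miR-16-5p crosses zero with quantile normalization, normexp and the deposited log2 values, and miR-195a-3p with the total gene signal.

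The authors' deposited log2 values give the members on a further scale, whose exact normalization is unknown. miR-497-5p was listed at 7.76 for the control and 8.86 for the knockout, and miR-195a-5p at 8.26 and 9.18. miR-15a-5p was listed at 9.45 and 9.83 and miR-322-5p at 7.33 and 7.90. The same 4 members, and miR-503-5p, thus stood higher in the knockout there as in the spot intensities. miR-15b-5p was listed at 10.12 and 9.45, miR-195a-3p at 4.83 and 3.11, and miR-16-5p at 11.005 and 10.49. Of these lower values, that of miR-16-5p runs against the scaled difference.

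Related miRNAs with AGCAGC 1 base earlier were compared by the same rule. miR-107-3p, which lies with miR-103 in introns of pantothenate kinase genes, stood 0.82 ± 0.015 higher on the knockout array and miR-103-3p 0.24 ± 0.016 higher. Their mature sequences, printed above, have the same seed. The remaining 4 of the 6 related miRNAs, miR-195b, miR-6342, miR-6353 and miR-6419, share the seed AGCAGCA, and neither array detected any of them well above background.

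Measured miRNAs known to restrain cell division stood higher on the knockout array, whereas the split of those known to promote it turned on the scaling. Of 15 restraining miRNAs of the let-7, miR-34, miR-26 and miR-449 families, 12 were measured on both arrays. All 12 were higher, where 40.9% of all miRNAs were, and 5 were at least 2-fold higher, where 15.6% of all miRNAs were. Most of the 12 are of the let-7 family, with miR-98-5p, so they are not 12 separate observations. How far their probes read related miRNAs was not tested. Their median was 0.81, from miR-98-5p at 0.24 ± 0.019 to the p53-induced miR-34a-5p at 2.28 ± 0.036. Of 12 promoting miRNAs of the miR-17, miR-106b, miR-221 and miR-21 groups, 11 were lower and 1 was higher. Over all miRNAs, 40.9% were higher. At least 2-fold lower stood 5 of the 12, where 17.5% of all miRNAs did. The median of the 12 was -0.79, from miR-18a-5p at -1.72 ± 0.029 to miR-21a-5p at 0.25 ± 0.016. With no scaling, 7 of these 12 were lower and 5 higher, and their median was -0.38. At least 2-fold lower were then 2 of the 12, where 13 of all 257 miRNAs were. The 12 restraining miRNAs all stayed higher with no scaling, where 61.1% of all miRNAs were higher. The family's median of 0.42 lay between. These lists were chosen with the results known, hold several members of the same families, and are descriptions. Over all 257 miRNAs the split at 2-fold, 40 higher and 45 lower, became 59 higher and 13 lower with no scaling.

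By the size of the difference alone, over the 2 arrays, the miRNAs most like miR-497-5p were miR-125b-5p, miR-27b-3p and miR-23a-3p, with absolute gaps of 0.0095, 0.010 and 0.042. Those most like miR-195a-3p were miR-6392-3p, miR-1196-5p and miR-466i-3p, with gaps of 0.0023, 0.013 and 0.056.

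Markers of cartilage and of other cells also differed between the arrays. Of the cartilage markers, the 2 arms of miR-140 and miR-455, all 4 were detected by both arrays. In the knockout 3 stood at least 2-fold higher, where 15.6% of all miRNAs did. Their scaled differences were 1.38 for miR-140-5p, 1.01 for miR-140-3p and 1.71 for miR-455-3p, with miR-455-5p at -0.026. The 4 leukocyte markers summed to 9633 and 4454. Most of that was miR-223-3p, at 8163 and 3632, while miR-150-5p stood higher, at 34.3 and 53.3. Of the 4 skeletal muscle markers, miR-1a-3p stood at -0.94, miR-133a-3p at -0.995 and miR-133b-3p at -0.996, with miR-206-3p at 0.053 ± 0.083. Of the 3 red cell markers, miR-451a and miR-144-3p were measured, at 0.55 and 1.51. The array held no miRNA under the name miR-486-5p, so this list is incomplete. The 2 endothelial markers, miR-126-3p and miR-126-5p, stood at 0.35 and 0.14. Markers were counted as measured only if each array detected them. Measured markers thus cannot show whether a cell type was absent from either sample. The part of these cells in the members' differences was not tested.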

How the data were processed

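Cartilage was peeled from the joint and its total RNA purified and labelled by kit, per the labels' protocols. The authors used Agilent Feature Extraction 10.7, per the submitters' processing notes, which wrote a background-subtracted intensity with spatial detrending for each of 52044 spots. The authors also deposited log2 values; how they were made is not stated here. They correlated with the log2 summed probe totals at 0.994 on either array over 299 miRNAs, and differences at 0.952, so the scale is log2 and the direction that of the signals. The column medians, also the floors, were -3.26 and -3.32, and 94.1% of knockout values above the floor recurred in the control column. The exact normalization stays unknown.

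Outlier spots were dropped, 13 of 320 member spots on the control and 23 of 320 on the knockout array, and log2 intensities averaged per probe. A probe was well above background when over 50% of its spots were so marked. Differences were averaged over probes so marked on both arrays, and an absolute log2 difference of 1 (2-fold) served for counts. A miRNA above background on 1 array alone got a bound against the higher of that probe's own signal and the lowest signal above background on the dim array. The number of arrays limits the precision. Named were all members, their other arms, related miRNAs, the highest and lowest of each list of division-linked miRNAs, and the nearest 3 by difference. Members and lists were chosen with earlier results of these data known. Python 3.11.15 and limma 3.58.1 (normexp) were used, and the steps were tested on simulated data.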

Additional observations from a re-analysis of the deposited data

How the results depend on the processing

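No paired analysis was possible because each group has 1 array, and for the same reason no replicate could be left out. Of 13 alternatives 12 were planned; the sum of the probe totals was added after seeing the data. The median over the measured members, 0.42, stayed positive: 0.85 when the 75th percentile covered all probes, 0.53 with the median, 0.27 with quantile normalization, 0.83 with no scaling, 0.83 with spike-in scaling, 0.25 after normexp, 0.73 with the total gene signal, 0.30 with no filter and a floor of 10, and 0.61 with the sum of the probe totals. The count at least 2-fold higher, 1, became 2 with the all-probe 75th percentile, the median, no scaling, spike-ins, every spot required above background and the sum of the probe totals, 3 with the total gene signal and 0 after normexp. The count at least 2-fold lower, 1, became 0 after normexp, with the total gene signal and with every spot required, where miR-195a-3p drops out and 6 members remain. Signs turned for miR-16-5p, to -0.35 with quantile normalization, -0.34 after normexp and -0.51 in the deposited values, and for miR-195a-3p, to 0.33 with the total gene signal, which on the knockout array exceeds the sum of its probe totals (31.2 against 11.5); the cause of the other moves was not tested, except that a scaling adds 1 constant to all. For miR-503-5p the total gene signal was lower on the knockout array, at 349 and 229, whereas its probe totals were higher there, at 10.1 and 17.8. The median of all 257 miRNAs shifted by 0.41 with no scaling. Dim members, miR-195a-3p and miR-503-5p, are limited by their signal over background.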
